A study of Mus musculus with 12 samples.

Results

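The junctions described here joined a broken 5′Smu end to sequence outside a window of chromosome 12 around the IgH constant region locus, in 12 CSR-HTGTS-seq libraries of mouse splenic B cells. CSR-HTGTS-seq amplifies and sequences the DNA that has become joined to a fixed bait, here the 5′ end of the Smu switch region, so each listed junction gives the bait end, the joined partner (the prey) and the bases between them. Members were all junctions other than those on chromosome 12 at positions 114390001 to 114700000, with preys under 70% G. These made up 4974 of 53012 listed junctions (9.38%). The junctions inside the window numbered 39234, and another 8804 junctions outside it had preys of 70% G or more and were left out.

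During class switch recombination (CSR) the enzyme AID, which acts on transcribed DNA and prefers motifs such as the palindrome AGCT, initiates double-strand breaks in Smu and in a downstream switch region, and end joining fuses them. A broken Smu end can also join a break elsewhere in the genome, which gives a chromosomal translocation. AID is known to act at lower frequency on other transcribed genes of B cells, often close to their transcription start, and the IgH translocations of B-cell lymphomas include partners of this kind. Nonhomologous end joining leaves joints that are blunt, that have short inserted stretches or that share a few bases between both ends (microhomology), and longer shared stretches are typical of alternative end joining.

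The libraries compared wild-type (WT) cells with cells lacking the 3′IgH CBEs, the CTCF-binding elements downstream of the IgH locus, here labelled 3CBEsD. All 10 elements had been deleted from both alleles of 129/SV-derived TC1 embryonic stem cells. WT and deleted stem cells gave rise to the lymphocytes of RDBC chimeras, in which the host blastocyst makes no mature lymphocytes, and splenic B cells were purified by removal of CD43-positive cells. Cells of both genotypes carried functional AID and were cultured for 96 h with aCD40/IL4, which induces switching to Sgamma1 and Sepsilon, or with LPS/aIgD-dextran, which induces switching to Sgamma3, Sgamma2b and Sgamma2a. Each of the 4 groups held 3 libraries. The number of mice or stem cell clones behind them was not given in the sources used here, so the tests measure the spread between libraries.

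The libraries listed 2273 to 8261 junctions each, of which 1454 to 6645 had preys under 70% G and 187 to 880 were members. The libraries came from 4 sequencing runs, with replicate 1 of all groups in 1 run and replicate 2 of all groups in another. WT LPS/aIgD-dextran replicates 2 and 3 had 845 window junctions in common (17.6% of the smaller list) and 12 members in common (3.14%). The other 65 pairs of libraries shared 11 to 134 window junctions (at most 3.89%) and 0 to 7 members (at most 3.80%). Whether those replicates were fully separate samples was not tested. Of the members off chromosome 12, 98.8% (4509 of 4562) matched the mm9 reference at 20 or more of the first 25 prey bases.

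The bait and a few preys are printed below because the results turn on where the bait ended and what it joined. The bait is the minus strand of mm9 chr12:114664790-114664909, numbered from 1 at its first base, with both AGCT palindromes in capitals (positions 64 to 67 and 85 to 88). In mm9, 11.5% of 120-base windows hold 2 or more AGCT. The next 4 lines show 22 bases around bait ends that recurred, with the bases kept in the joint in capitals. Members with blunt joints ended most often at positions 34 and 96, and window junctions with blunt joints at 64 and 76.
bait: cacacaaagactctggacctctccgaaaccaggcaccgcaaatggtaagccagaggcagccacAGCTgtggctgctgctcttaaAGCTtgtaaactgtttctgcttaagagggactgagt
bait end 34: CCGAAACCAGGCaccgcaaatg
bait end 96: AGCTTGTAAACTgtttctgctt
bait end 64: GAGGCAGCCACAgctgtggctg
bait end 76: GCTGTGGCTGCTgctcttaaag

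The prey side is shown by the 150 bases with the most junctions in Il4ra and in Clec2d. These were the genes with the most members among those without repeats of switch type. A site in Trerf1 with repeats of the pentamer GAGCT is also shown. The windows are mm9 chr7:132696556-132696705, plus strand, mm9 chr6:129132527-129132676, plus strand, and mm9 chr17:47301897-47302046, plus strand. Capitals mark AGCT in the first pair and GAGCT or AGCTC in Trerf1. The Il4ra and Clec2d windows touched no annotated exon or UTR and so were intronic, and each held 1 AGCT, as 49.6% of 150-base windows of mm9 hold at least 1. At least 7 copies of GAGCT or AGCTC occurred in 0.00398% of such windows.
Il4ra: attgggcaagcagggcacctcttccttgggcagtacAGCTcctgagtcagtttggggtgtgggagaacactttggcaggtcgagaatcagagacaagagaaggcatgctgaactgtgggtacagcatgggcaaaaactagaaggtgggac
Clec2d: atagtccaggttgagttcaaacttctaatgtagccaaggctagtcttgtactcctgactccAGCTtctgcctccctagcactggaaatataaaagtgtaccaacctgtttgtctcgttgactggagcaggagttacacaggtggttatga
Trerf1: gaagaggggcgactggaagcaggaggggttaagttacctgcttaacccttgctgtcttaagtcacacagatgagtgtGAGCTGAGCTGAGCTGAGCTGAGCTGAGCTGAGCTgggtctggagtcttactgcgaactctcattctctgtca

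Single joints, read from the bait into the prey, show shapes that the members took. In the Il4ra joint the capitals are 3 inserted bases, in Clec2d 2 bases shared by bait and prey, in Trerf1 an insertion of 27 bases, and in the intergenic chromosome 3 site near Gm10710 an overlap of 18 bases that bait and prey share.
Il4ra joint: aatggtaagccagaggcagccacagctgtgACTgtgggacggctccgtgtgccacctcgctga
Clec2d joint: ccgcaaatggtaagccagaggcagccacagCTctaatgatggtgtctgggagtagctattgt
Trerf1 joint: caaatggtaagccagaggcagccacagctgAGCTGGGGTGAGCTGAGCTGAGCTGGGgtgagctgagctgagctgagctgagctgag
Gm10710 joint: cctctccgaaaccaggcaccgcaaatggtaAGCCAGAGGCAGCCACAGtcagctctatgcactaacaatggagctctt

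Junctions outside the IgH window took a larger share of all junctions in the cells lacking the 3′IgH CBEs than in WT cells under both stimulations. With aCD40/IL4 the share was 5.72%, 6.29% and 6.94% in the WT libraries (mean 6.32% ± 0.610, SD, n = 3). In the deleted libraries it was 13.5%, 10.8% and 12.9% (mean 12.4% ± 1.39). The groups did not overlap, and the mean was 1.96-fold higher after deletion, a difference of 6.08 percentage points. With LPS/aIgD-dextran the WT libraries gave 6.02%, 7.21% and 8.23% (mean 7.16% ± 1.11). The deleted libraries gave 20.7%, 23.6% and 22.5% (mean 22.3% ± 1.45), again without overlap, a 3.11-fold higher mean and a difference of 15.1 points. Counting error was smaller than the gap between genotypes: the widest 95% Wilson interval of a single aCD40/IL4 library was 11.2% to 14.7%, in deleted replicate 3.

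With 3 libraries against 3, an exact permutation test cannot go below p = 0.1, which both contrasts reached (two-sided). A difference is therefore called here where the libraries of both groups did not overlap. Among 10 shares compared, 30% were called for the deletion with aCD40/IL4 and 60% with LPS/aIgD-dextran. Permuting the genotype within each stimulation over all 12 libraries gave an exact p = 0.005 for the share outside the window, adjusted p = 0.025 over the 10 shares by Benjamini-Hochberg, and 0.005 is the smallest p this test allows. The effect was 9.04 points larger with LPS/aIgD-dextran than with aCD40/IL4, a difference not past the threshold (exact p = 0.175). With preys of any G content counted, the differences were 16.4 points with aCD40/IL4 and 14.3 points with LPS/aIgD-dextran, and the groups overlapped in both (exact permutation p = 0.4 and 0.3).

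The same order held against junctions within Smu itself. With aCD40/IL4, members per 100 Smu junctions were 15.4, 16.4 and 19.2 in the WT libraries, compared with 29.2, 21.8 and 28.2 after deletion. With LPS/aIgD-dextran the WT libraries had 16.1, 19.0 and 22.2, compared with 38.5, 45.4 and 42.3 after deletion. Neither stimulation had overlapping groups. Within a sequencing run the deleted share was 2.36 and 1.72 times the WT share with aCD40/IL4, and 3.44 and 2.98 times with LPS/aIgD-dextran. Junction lists hold no cell number, so more joints outside the window and fewer joints inside it cannot be told apart.

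Between stimulations the shares of the WT libraries overlapped, with a mean 0.838 points higher under LPS/aIgD-dextran (exact permutation p = 0.3). The deleted libraries did not overlap, with a mean 9.88 points higher under LPS/aIgD-dextran (exact permutation p = 0.1). Of the 10 shares, 20% were called between stimulations in WT and 60% in deleted cells. When preys of any G content were counted, the difference in deleted cells became -2.66 points with overlapping groups. Deleted aCD40/IL4 replicate 3, with 55.7% of its listed junctions in G-rich preys outside the window, was among these libraries.

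**Figure D1:**
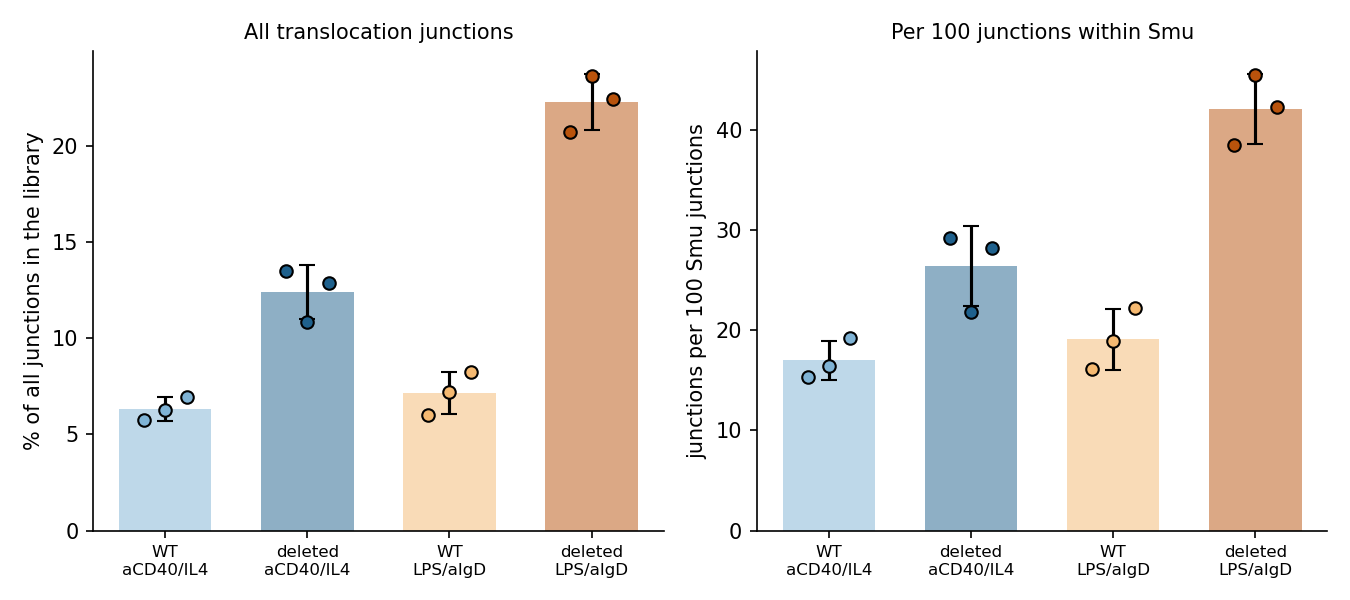
Junctions outside the IgH window as a percent of all junctions with preys under 70% G, and per 100 junctions within Smu, by group: dots are the 12 libraries, bars group means and error bars SD (n = 3). Deleted libraries lie between 10.8% and 23.6%, above the WT libraries, which lie between 5.72% and 8.23%.

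Joints outside the window had more shared bases and fewer insertions than joints inside it in the same libraries. Microhomology of 1 base or more was present in 72.6% ± 4.78 (SD, n = 12) of members and in 56.2% ± 0.969 of window junctions. Blunt joints made up 15.8% of members against 23.1% of window junctions, and joints with an insertion 11.6% against 20.7%. Each difference had the same direction in 12 of 12 libraries (exact sign-flip permutation p = 0.000488, the smallest it can give, adjusted p = 0.000628 over 9 measures).

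The excess lay in the longer overlaps. Overlaps of 3 to 9 bases made up 33.1% of members and 19.3% of window junctions, and overlaps of 10 bases or more 12.3% and 0.394%, both higher in 12 of 12 libraries. Overlaps of 1 or 2 bases were fewer among members, 27.2% against 36.5%, in 11 of 12 libraries (exact sign-flip permutation p = 0.000977). Among joints with 1 to 9 shared bases the mean overlap was 3.17 bases in members and 2.30 in window junctions. Short insertions of 1 to 3 bases accounted for the deficit, at 5.03% against 14.6%. Insertions of 4 bases or more made up 6.55% and 6.12% (higher in 7 of 12 libraries, exact sign-flip permutation p = 0.574), a difference that did not pass the threshold.

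Joint shape also differed between the groups. With aCD40/IL4 the share of members with 3 to 9 shared bases was 24.4% ± 1.88 in WT and 26.8% ± 1.89 after deletion, which overlapped (exact permutation p = 0.2, n = 3 per group). The LPS/aIgD-dextran values, 35.1% ± 1.18 in WT and 45.9% ± 3.07 after deletion, did not overlap. Between stimulations neither genotype overlapped. Window junctions of the same libraries had a narrow range, from 18.2% to 20.2% in group means. Insertions of 1 to 3 bases did not overlap in any of the 4 comparisons, with means of 7.32% (WT aCD40/IL4), 5.07% (deleted aCD40/IL4), 4.91% (WT LPS/aIgD-dextran) and 2.83% (deleted LPS/aIgD-dextran). These finer classes were chosen after the values had been seen.

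Among the 10 shares, microhomology of any length was higher, from 73.4% ± 1.90 in WT to 77.8% ± 1.56 in deleted cells with LPS/aIgD-dextran, without overlap. Insertions were fewer, from 12.4% ± 2.34 to 7.02% ± 0.792 in the same comparison. Over both stimulations insertions differed by -3.94 points between deleted and WT cells (exact permutation p = 0.01, adjusted p = 0.0333). Microhomology differed by 4.67 points, which did not pass the adjusted threshold (exact permutation p = 0.025, adjusted p = 0.05). Between stimulations in deleted cells microhomology was 72.1% ± 3.95 and 77.8% ± 1.56 and insertions 12.2% ± 1.61 and 7.02% ± 0.792, neither overlapping. Leaving out deleted aCD40/IL4 replicate 1 lowered that microhomology difference from 5.74 to 3.53 points. With preys of at least 50 aligned bases only, the differences after deletion with LPS/aIgD-dextran were 0.805 points for microhomology and -2.01 for insertions, and that of microhomology between stimulations in deleted cells was 3.73, all with overlapping groups. With preys of any G content, the groups overlapped after deletion with LPS/aIgD-dextran (13.6 and -15.1 points) and between stimulations in deleted cells (17.8 and -18.5 points).

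**Figure D2:**
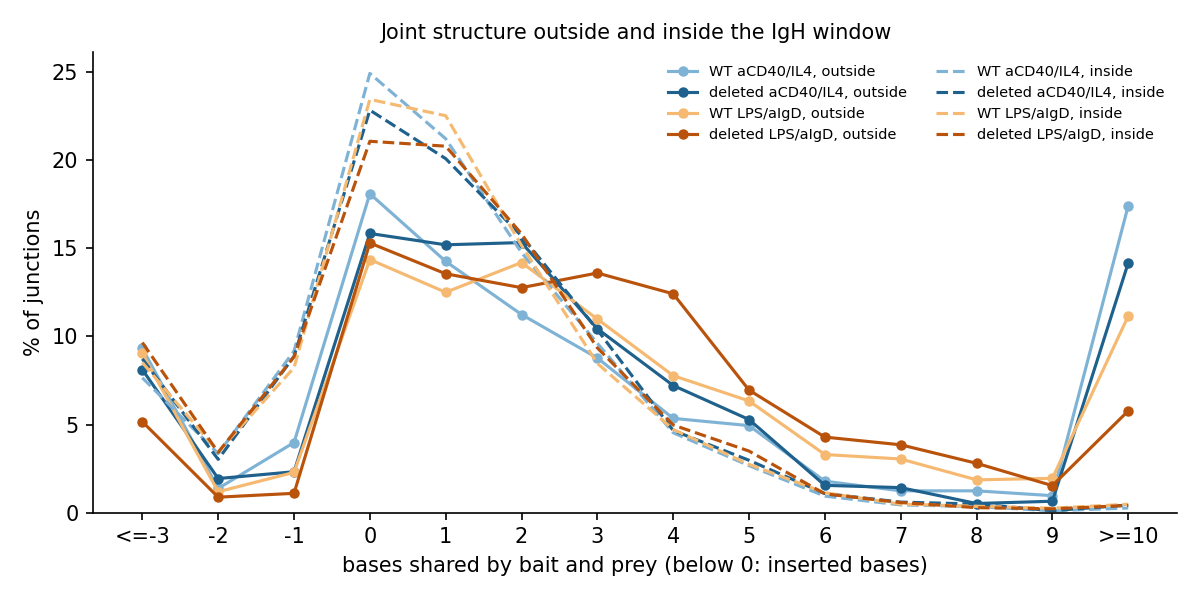
Percent of junctions at each number of bases shared by bait and prey (below 0: inserted bases, 0: blunt), pooled over the libraries of a group, outside (solid lines) and inside (dashed lines) the IgH window. Members reach further to the right: as means over libraries, 12.3% of members and 0.394% of window junctions shared 10 bases or more.

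Members fell into 3 classes, drawn after the values had been seen. A long overlap of at least 10 bases between bait and prey was present in 501 members (10.1%), and preys made up to at least 50% of switch-type pentamers in 119 (2.39%). The other 4354 members (87.5%) had neither. The long overlaps had a median of 14 bases and a maximum of 27, and lay at 433 distinct positions of the genome. In 62.5% of them (313 of 501) the last shared bait base was at positions 61 to 71, around the first AGCT. The overlaps began at a median bait position of 51, so the break may lie anywhere in the shared bases.

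The deletion contrast of the share outside the window held in the remaining class, without overlap in either stimulation. Its share of junctions with aCD40/IL4 was 4.97% ± 0.324 in WT and 10.2% ± 1.43 after deletion, and with LPS/aIgD-dextran 6.17% ± 0.912 and 20.6% ± 1.33. Long overlaps made up 1.11% and 1.90% of junctions with aCD40/IL4 and 0.792% and 1.30% with LPS/aIgD-dextran, and these groups overlapped (exact permutation p = 0.3 and 0.2). Without both special classes, microhomology was still present in 69.7% of members against 56.7% of window junctions, higher in 12 of 12 libraries.

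The bait ends of the members differed from those of the window junctions. Blunt joints show the end without ambiguity. Of 775 blunt members, 81 (10.5%) ended at bait position 34 and 70 (9.03%) at position 96, where 0.744% and 0.842% of 9144 blunt window junctions ended. Window junctions ended at position 64, inside the first AGCT, in 3.66% of blunt joints, against 0.387% of members. The 6 positions used most by blunt members, 34, 55, 57, 96, 111 and 140, held 36.0% of blunt members (279 of 775) and 5.51% of blunt window junctions. The bait bases on both sides of positions 34 and 96 are those printed above and hold no AGCT at the joint, and position 140 lies past the stretch shown.

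Blunt bait ends inside an AGCT or at most 1 base from it made up 6.51% ± 3.71 (SD, n = 12) of members and 18.8% ± 1.64 of window junctions. The share was lower among members in 12 of 12 libraries (exact sign-flip permutation p = 0.000488). The same comparison with window junctions outside Smu gave 6.51% against 19.2%, lower in 12 of 12. In joints with an insertion it was 17.6% against 25.6%, lower in 10 of 12 (exact sign-flip permutation p = 0.00391). The bait-end measures were chosen after the values had been seen.

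Bait ends at positions 34 and 96 were also counted over joints of every shape. They made up 5.31% ± 0.518 of members in WT and 5.68% ± 1.65 in deleted cells with aCD40/IL4, and 11.7% ± 0.291 and 14.2% ± 1.35 with LPS/aIgD-dextran (n = 3 each). Window junctions of the same groups had 1.14% to 1.41%. The positions were picked for their use among blunt members, most of which came from LPS/aIgD-dextran libraries, so the differences between groups and from the window are a description.

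**Figure D3:**
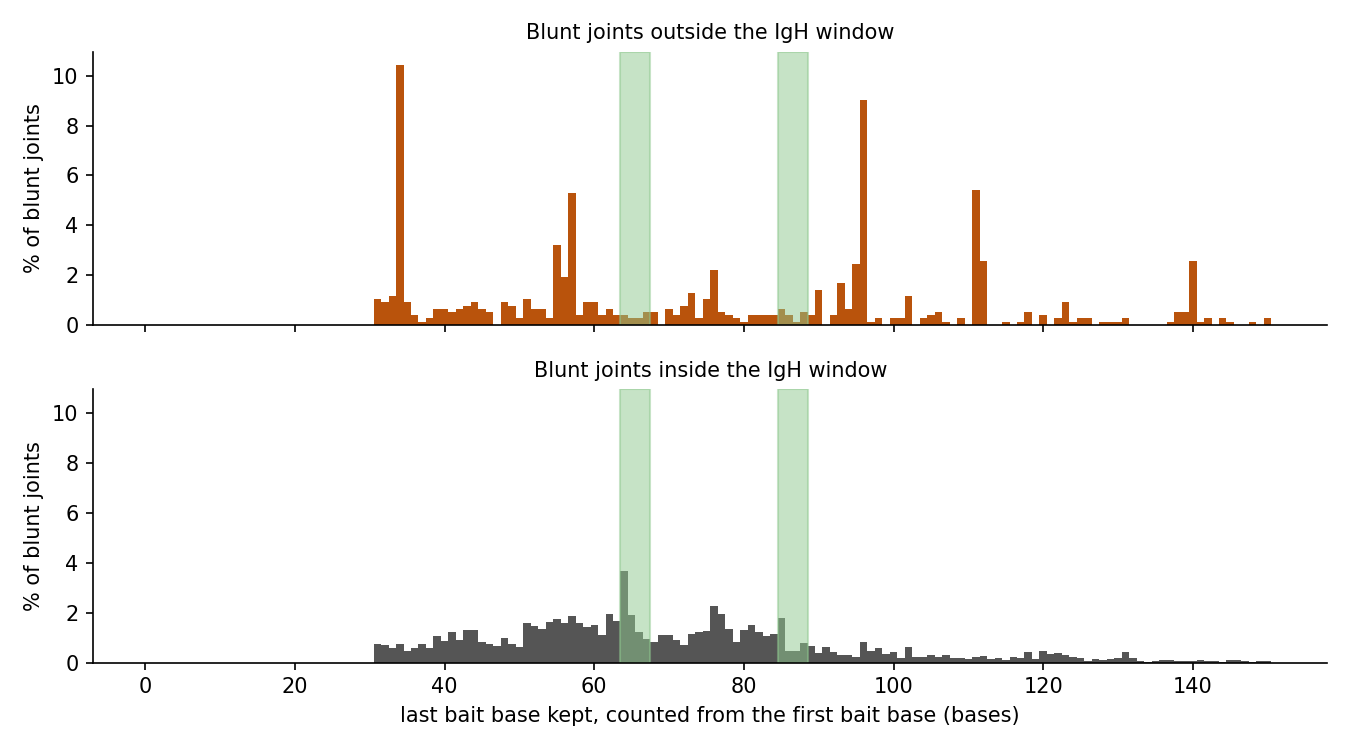
Percent of blunt joints that ended at each base of the bait, counted from 1 at its first base, outside (upper plot) and inside (lower plot) the IgH window, with AGCT shaded. Members peak at positions 34 (10.5%) and 96 (9.03%), and window junctions at position 64 (3.66%).

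Members were spread over all chromosomes. Over the 18 autosomes other than chromosome 12 their density ran from 1.52 per Mb on chromosome 4 to 2.61 per Mb on chromosome 11 (median 1.84). Chromosome 12, the IgH chromosome, held 412 members outside the window, or 3.40 per Mb. Of these, 145 lay above the window, on the side of the V(D)J exons. How many of them joined within the IgH locus was not tested. The X chromosome held 131, or 0.786 per Mb, and its density was 0.258 to 0.619 times that of the autosomes in the single libraries. The Y chromosome held 15, or 0.943 per Mb. Densities were not corrected for the copy number of the sex chromosomes.

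Of the members off chromosome 12, 7.67% (350 of 4562, 95% Wilson interval 6.93% to 8.48%) lay within 2 kb of the start of a protein-coding gene, where 3.19% of mm9 lies. Inside protein-coding genes lay 47.3% (2159 of 4562), compared with 37.7% of mm9. An AGCT held or touched the junction base in 5.52% (252 of 4562, interval 4.90% to 6.23%), whereas 3.16% of the positions within 500 bases of the same junctions qualify. In members without long overlaps or pentamers these were 4.24% and 2.98%. By group the latter members had 5.18% against 3.01% (WT aCD40/IL4) and 4.36% against 3.02% (deleted aCD40/IL4). With LPS/aIgD-dextran they had 5.09% against 2.98% in WT and 3.57% against 2.96% in deleted cells, the smallest difference. These intervals cover counting error only, and the share was not corrected for mappability.

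The junctions of the deleted cells lay less often inside genes. With aCD40/IL4, 11.8% ± 0.961 of WT and 9.13% ± 0.922 of deleted members were within 2 kb of a start, and 56.4% ± 2.95 and 49.2% ± 2.76 were inside a gene, neither pair overlapping. With LPS/aIgD-dextran the genic shares were 46.4% ± 1.18 and 44.6% ± 0.338, without overlap, and the shares near a start were 7.68% ± 2.25 and 6.15% ± 1.43, which overlapped (exact permutation p = 0.4). Over both stimulations the genic share differed by -4.51 points (exact permutation p = 0.005, adjusted p = 0.025), and that near a start by -2.09 points, which did not pass the adjusted threshold (exact permutation p = 0.045, adjusted p = 0.075).

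These are shares of members, which were more numerous in deleted cells. Per 10000 junctions, members within 2 kb of a start numbered, with aCD40/IL4, 66.7 ± 12.8 in WT and 101 ± 9.08 after deletion, and 48.6 ± 8.73 and 128 ± 35.3 with LPS/aIgD-dextran, higher in all deleted libraries than in all WT libraries. The LPS/aIgD-dextran genic difference was -1.75 points, and -1.14 without WT replicate 1. Without long overlaps and pentamers it was -0.278 points with overlapping groups, and the aCD40/IL4 groups then also overlapped, at -7.69 points. The LPS/aIgD-dextran groups also overlapped at a limit of 50% prey G (-1.53). With preys of any G content the genic differences were -3.17 points with aCD40/IL4 and -1.35 with LPS/aIgD-dextran, and that near a start with aCD40/IL4 was -0.851, all with overlap. The latter was -2.60 and overlapped with preys of at least 50 aligned bases.

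Stimulation moved the same shares in WT cells. From aCD40/IL4 to LPS/aIgD-dextran the share near a start differed by -4.09 points and the genic share by -10.1 points, without overlap in either. In deleted cells the differences were -2.98 and -4.58 points, also without overlap. The groups near a start came to overlap with preys of at least 50 aligned bases (-3.16 points in WT, -2.71 in deleted cells). In deleted cells they also overlapped at 1 kb from a start (-0.307), without long overlaps and pentamers (-3.70) and without recurring positions (-2.82). With preys of any G content both shares overlapped in deleted cells (-2.54 near a start, -1.93 inside genes). Orientation varied little, with 49.1% to 52.1% of members on the plus strand in the group means. The one called difference, 52.1% ± 2.08 in WT and 49.9% ± 0.557 in deleted cells with LPS/aIgD-dextran, was -2.22 points, and -1.02 without WT replicate 2. The groups overlapped with preys of at least 50 aligned bases (-0.582), without long overlaps and pentamers (-1.22), without recurring positions (-2.47) and with preys of any G content (-0.227).

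Recurrent sites held a small part of the members. A recurrent site was a run of members in which neighbours lay within 10 kb, with at least 5 members from at least 3 libraries. The genome held 32 of them with 314 members (6.31%), which was 13.3% of WT and 7.73% of deleted members with aCD40/IL4, and 6.93% and 3.28% with LPS/aIgD-dextran. The junctions of 17 sites were spread over 1000 to 35699 bases and held 189 members. In another 10 sites, 40 to 877 bases wide with 96 members, most members had preys rich in switch-type pentamers. The pentamers made up at most 20.1% of the genome bases at any of these sites and their flanks. A further 3 sites with 16 members were long overlaps, and 2 with 13 members were under 100 bases wide and neither.

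The largest spread site began at position 114700904 of chromosome 12, just above the window and upstream of Smu, where the hybrid coordinates allow no gene name. This is the side of Smu on which the V(D)J exons of the IgH locus lie. How many joints of the site lie within the IgH locus was not tested. The site had 40 members from all 12 libraries. These numbered 8 in each aCD40/IL4 group, 16 in WT LPS/aIgD-dextran and 8 in deleted LPS/aIgD-dextran. A site beside Igkc, the kappa constant region, had 21 members from 9 libraries (WT aCD40/IL4 5, deleted aCD40/IL4 2, WT LPS/aIgD-dextran 9, deleted LPS/aIgD-dextran 5). A second site above the window had 11 members from 7 libraries. A prey there matched mm9 at position 114816834, inside Gm16969 and also upstream of Smu.

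Il4ra and Clec2d were found with aCD40/IL4. Il4ra, the alpha chain of the interleukin 4 receptor, had 7, 0 and 7 members in the WT aCD40/IL4 libraries and 1, 2 and 1 in the deleted ones. It had 0 in each LPS/aIgD-dextran library, of 252 to 880 members, which allows a share of up to 1.19% in the smallest and 0.341% in the largest. Clec2d, a C-type lectin of lymphocytes, had 4, 6 and 4 members in the WT and 3, 2 and 3 in the deleted aCD40/IL4 libraries. In the LPS/aIgD-dextran libraries it had 1, 1 and 0 in WT and 1, 0 and 0 in deleted cells, so its stimulations did not overlap.

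Per 10000 junctions the Il4ra and Clec2d sites together had 24.6 ± 8.59 members in WT and 20.2 ± 6.47 in deleted cells with aCD40/IL4, and 1.42 ± 1.26 and 1.26 ± 2.19 with LPS/aIgD-dextran. Stimulations did not overlap in either genotype, and genotypes overlapped in both (exact permutation p = 0.6 and 1). The Il4ra junctions lay 123 to 4260 bases from its start (median 1486), 8 of 18 in the direction of the gene, and those of Clec2d 1369 to 6181 bases from its start (median 3448), 12 of 25. The sites were chosen for their counts, so these differences are descriptions.

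**Figure D4:**
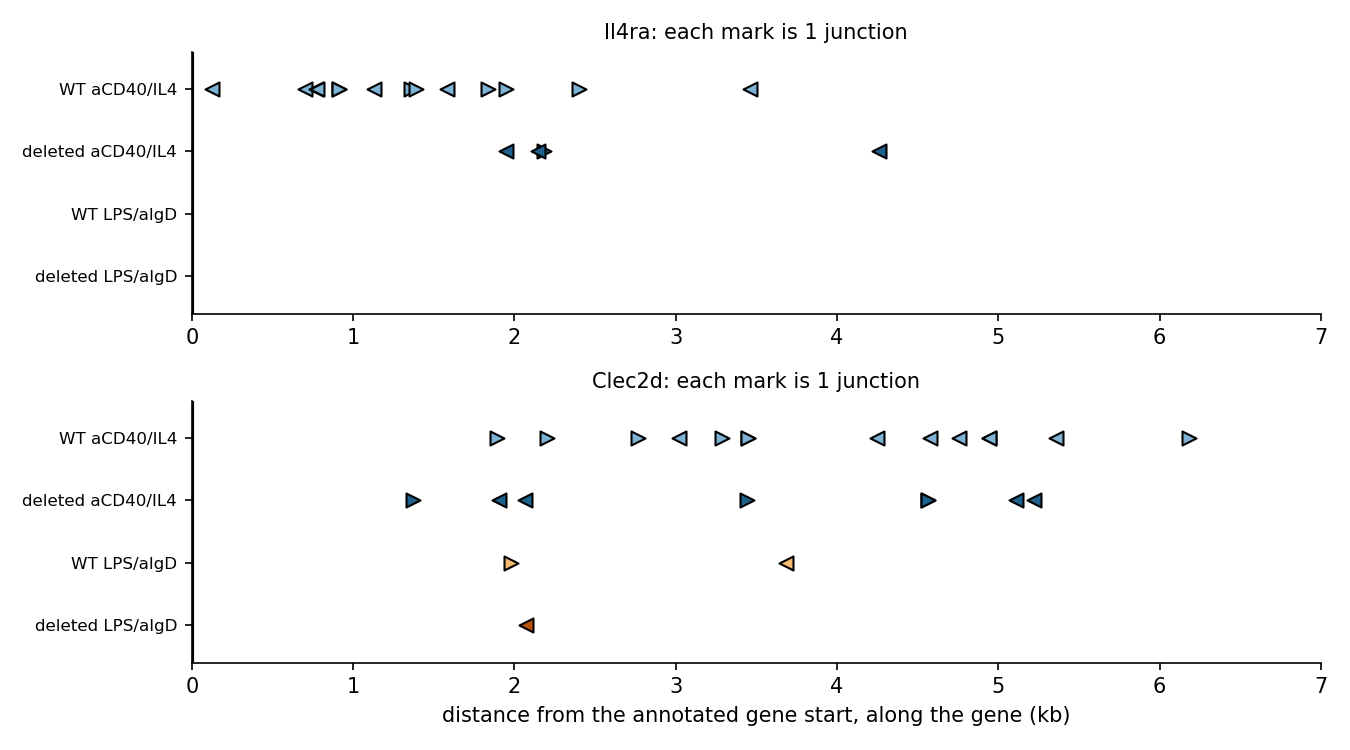
Distance of each junction in Il4ra and Clec2d from the annotated start of the gene, in kb, by group, with marks pointing in the orientation of the junction. The Il4ra junctions lie between 123 and 4260 bases and all come from aCD40/IL4 libraries, and those of Clec2d lie between 1369 and 6181 bases.

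Other spread sites were smaller. Zfp36l1, an RNA-binding protein that promotes mRNA decay, had 7 members from 6 libraries, and Pim1, a serine/threonine kinase gene and a known AID target, had 6 from 4. Ikzf3, which encodes the lymphoid transcription factor Aiolos, had 6 from 5 libraries. A site on chromosome 2, 1133 bases outside Gm10801, had 10 members, all from LPS/aIgD-dextran libraries (WT 3, deleted 7). Gm10800 with 2 kb on each side also held 10 members. Whether preys map uniquely at this site was not tested. Those libraries held most members, 1183 in WT and 2286 in deleted cells, compared with 729 and 776 with aCD40/IL4. The 1-Mb bin of the chromosome 2 site was not called, so this count is a description. The sites of Ikzf3, Zfp36l1 and Pim1 were outside the 15 largest, the first being named as a gene with many members, Pim1 from the gene lists, and Zfp36l1 after its values had been seen.

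**Figure D5:**
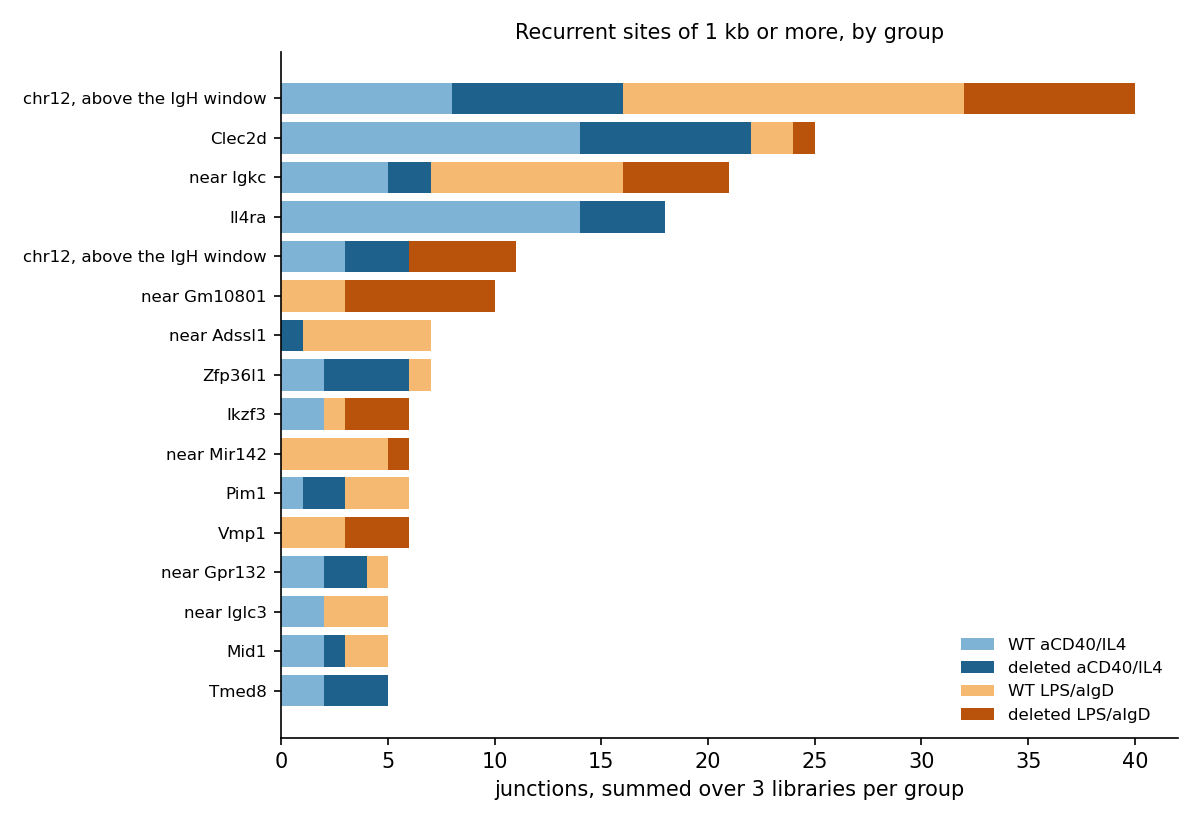
Junctions at 16 of the 17 recurrent sites spread over 1 kb or more, summed over 3 libraries and stacked by group. All 18 Il4ra junctions come from aCD40/IL4 libraries, whereas the largest site above the IgH window has 8 to 16 in each group.

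The pentamer sites were narrow and met in many libraries. Trerf1 had 18 members from 10 libraries at 9 positions within 40 bases, and A630007B06Rik had 15 from 10 libraries within 43 bases. Their median joints carried insertions of 5 and 13 bases. Cit, the citron kinase gene, had 9 members, and Gypc and the potassium channel gene Kcnj6 had 8 each. GAGCT or AGCTC stood in all 88 pentamer preys of these sites, and GGGGT or ACCCC, the other common pentamer of Smu, in 35 of them. The genome at the same sites held GGGGT or ACCCC 7 times in 4464 bases. Whether these preys came from Smu repeats and were placed at look-alike sites was not tested. Pias1, a SUMO ligase gene, had 8 members from 7 libraries within 4 bases, with a median prey of 26 bases.

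Known AID off-target genes held 65 members (WT aCD40/IL4 28, deleted aCD40/IL4 13, WT LPS/aIgD-dextran 14, deleted LPS/aIgD-dextran 10). Of 42 listed genes, 21 held a member in the gene body or within 2 kb of it, with 18 in Il4ra and 6 in Pim1. Il21r, the interleukin 21 receptor beside Il4ra, Pax5, a B-cell transcription factor, and the microRNA gene Mir142 had 4 each, and Myc, the translocation partner of plasmacytomas, had 3. These were named after their values had been seen.

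As a share of members the list fell with LPS/aIgD-dextran from 1.98%, 1.04% and 0.914% in WT to 0.183%, 0.341% and 0.698% in deleted cells, without overlap. Without WT replicate 1 that difference of -0.906 points was -0.570, and with preys of any G content it was -0.547 with overlap. With aCD40/IL4 the WT libraries gave 5.69%, 1.56% and 4.60% and the deleted libraries 1.96%, 1.77% and 1.07%, which overlapped (exact permutation p = 0.3). Over both stimulations the difference was -1.63 points and did not pass the adjusted threshold (exact permutation p = 0.025, adjusted p = 0.05).

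Per 10000 junctions, however, the list had 24.7 ± 13.0 members in WT and 19.8 ± 6.38 in deleted cells with aCD40/IL4, and 9.0 ± 2.56 and 9.18 ± 6.03 with LPS/aIgD-dextran. Both pairs overlapped (exact permutation p = 0.6 and 0.8). Members off the list rose from 607 ± 62.1 to 1220 ± 137 with aCD40/IL4 and from 707 ± 113 to 2218 ± 142 with LPS/aIgD-dextran, without overlap. The list held 65 of 4974 members, so a rise in all members must lie mostly off it. Counts on the list were too few to tell whether it rose as well.

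The other lists held few members. Of 20 genes of the IL4 and CD40 response, 7 held 10 members. The 12 plasmablast genes held none. Of 16 genes downstream of the IgH locus, 8 held 23 members (WT aCD40/IL4 3, deleted aCD40/IL4 9, WT LPS/aIgD-dextran 9, deleted LPS/aIgD-dextran 2), with 7 in Adssl1, a muscle adenylosuccinate synthase, and 5 in Gpr132, a G protein-coupled receptor. Of the 7 in Adssl1, 6 came from WT LPS/aIgD-dextran. Among the 16 genes, Tmem121 and Crip1 lie inside the window, so no junction in their gene bodies could be a member.

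On chromosome 12, 145 members lay above the window, 29 within 1 Mb below it and 238 further below. The 29 numbered 1, 1 and 1 in WT and 2, 3 and 6 in deleted libraries with aCD40/IL4, without overlap, and 1, 7 and 2 in WT and 1, 2 and 2 in deleted libraries with LPS/aIgD-dextran, which overlapped. As shares of junctions the aCD40/IL4 means were 0.0261% in WT and 0.205% ± 0.180 after deletion. Of those deleted members, 3 lay in Crip2 in 1 library. Counts this near the floor of 3 junctions are a description. Coordinates above the window follow a hybrid of mm9 and a 129 IgH sequence: of 69 members there with a unique 30-base match in mm9, 0 had the same coordinate, whereas all 207 such members below the window did. The share of members on chromosome 12 overlapped between groups in all 4 comparisons, from 6.74% ± 1.26 in deleted LPS/aIgD-dextran to 10.9% ± 2.25 in WT aCD40/IL4. For the deletion with LPS/aIgD-dextran, where same-numbered libraries deviated together, all 3 pairs were lower after deletion, by -2.21 points on average (exact sign-flip permutation p = 0.25 with the replicate block, the smallest it can give).

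Chromosomes and 1-Mb bins were called by Fisher's exact test on pooled members (adjusted p under 0.05) together with libraries that did not overlap. The pooled p counts members of 1 library as independent and so is too small as a test of the conditions, for which 3 libraries against 3 cannot go below an exact permutation p = 0.1. A bin empty in one group entered the test through the other group alone, so the counts below are a description, with no p. For the deletion, 0% of chromosomes and 0% of bins were called in either stimulation, where 2 of 21 and 2 of 21 chromosomes and 2 of 24 and 9 of 74 bins had an unadjusted p under 0.05. Between stimulations in WT, 5% of chromosomes (1 of 20) and 7.14% of bins (2 of 28) were called. In deleted cells it was 0% of chromosomes (3 of 21 with an unadjusted p under 0.05) and 5.45% of bins (3 of 55).

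Chromosome 7 held 8.92% of WT members with aCD40/IL4 and 4.48% with LPS/aIgD-dextran, a call lost without WT aCD40/IL4 replicate 1 or WT LPS/aIgD-dextran replicate 3, which left 0 chromosomes called. The bin at 132 Mb of chromosome 7, with Il4ra and Il21r, held 18 WT members with aCD40/IL4 and 0 with LPS/aIgD-dextran. The bin at 129 Mb of chromosome 6, with Clec2d, held 14 and 2 in WT and 10 and 1 in deleted cells. In deleted cells the bin at 88 Mb of chromosome 12, with Tmed8, held 6 and 0. The bin at 114 Mb of chromosome 12 contains the window, so its members lie on either side of it. In deleted cells it held 19 and 18, or 2.45% and 0.787% of members. Without deleted aCD40/IL4 replicate 3, 1 of these 3 bins was called.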

How the data were processed

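CSR-HTGTS-seq libraries from a 5′Smu bait were made by linear amplification-mediated PCR. Per the labels and the study's methods, the authors mapped reads with Bowtie2 to a hybrid of mm9 and a 129 IgH sequence, removed duplicates and deposited 12 junction lists, whose values are coordinates, alignment bounds and read sequences rather than normalized levels; other versions are not given in the sources used here. Members and gene lists were chosen with earlier results of these data known. Members (preys under 70% G, outside the window) were annotated with mm9 gene models and classed by the overlap of bait and prey alignments. Percentages per library were tested by exact permutation, two-sided, between groups (3 against 3), within stimulations (400 relabellings) and by sign flips over 12 libraries. Bins and chromosomes with at least 5 members were tested by Fisher's exact test on pooled members. P-values were adjusted by Benjamini-Hochberg, with a threshold of 0.05. Intervals are 95% Wilson intervals and cover counting error only. With no member, a floor of 3 junctions applied. The bin test was tested on simulated data. Alternatives were other prey filters, distances, denominators, bin widths, the replicate block and leaving out each library. Same-numbered libraries deviated together for the deletion with LPS/aIgD-dextran (correlations over 10 measures 0.498, 0.162 and 0.640) and not in every pair of the other comparisons. Sites were named by the 15 with the most members, the 12 genes with the most, listed genes with at least 5, and called bins; 1 site and 1 gene list are not reported here. Python 3.11.15, numpy 2.4.6, pandas 2.3.3, scipy 1.17.1, pysam 0.24.0 and matplotlib 3.10.9 were used.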

Additional observations from a re-analysis of the deposited data

Results flagged for a closer look

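Preys of 70% G or more, which were left out of the members, numbered 8804 outside the IgH window. They were looked at again because they lie outside the measurement compared here. The replicate 1 libraries held 6 to 18 of them and the replicate 2 and 3 libraries 695 to 1827, in every group, and replicate 1 came from a sequencing run of its own. In deleted aCD40/IL4 replicate 3 they made up 55.7% of the listed junctions. In the other replicate 2 and 3 libraries they made up 15.1% to 21.2%. The origin of these preys was not tested.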

How the results depend on the processing

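Of 364 alternative values other than leaving out a library, 306 kept direction and call. The share outside the window kept its deletion call in both stimulations when counted per Smu junction, without Sgamma1 junctions in the denominator, at a prey limit of 50% G, with each position once, and without long overlaps or pentamers. Counts of 187 to 880 members per library limit the rarer shares, and no 3-against-3 comparison can reach an exact permutation p below 0.1.

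With no limit on prey G the groups overlapped, as each library then held its G-rich preys. Those outside the window were 55.7% of listed junctions in deleted aCD40/IL4 replicate 3 and at most 21.2% in any other library. The share outside the window after deletion was 16.4 points higher (aCD40/IL4) and 14.3 (LPS/aIgD-dextran), and LPS/aIgD-dextran minus aCD40/IL4 in deleted cells was -2.66, reversed from 9.88. Likewise for the deletion the share near a start was -0.851 and genic -3.17 (aCD40/IL4), and genic -1.35, plus strand -0.227, microhomology 13.6, insertion -15.1 and the AID list -0.547 (LPS/aIgD-dextran). Between stimulations in deleted cells the shares were near a start -2.54, genic -1.93, microhomology 17.8, insertion -18.5 and the AID list -0.607.

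With preys of at least 50 aligned bases, groups came to overlap for the deletion near a start at -2.60 (aCD40/IL4), plus strand -0.582, microhomology 0.805 and insertion -2.01 (LPS/aIgD-dextran), and between stimulations near a start -3.16 (WT) and -2.71 (deleted), microhomology 3.73 and the AID list -1.06 (deleted). They came apart for blunt 1.20 (deletion, LPS/aIgD-dextran), microhomology 6.80, insertion -2.50 and blunt -4.30 (stimulation, WT) and chromosome 12 -4.08 (stimulation, deleted).

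Without long overlaps or pentamers, a setting chosen after seeing the data, as were the other window junctions used for bait ends, overlap arose for genic -7.69 (aCD40/IL4) and -0.278 and plus strand -1.22 (LPS/aIgD-dextran) after deletion and near a start -3.70 (stimulation, deleted), and microhomology 9.22, insertion -3.76 and blunt -5.46 came apart between stimulations in WT. Recurrent sites then numbered 19 in place of 32, and 9 at 10 or more members. Leaving out positions that recur between libraries lost plus strand -2.47 (deletion, LPS/aIgD-dextran) and near a start -2.82 (stimulation, deleted) and separated microhomology 7.76 and blunt -5.12 (stimulation, WT). WT microhomology between stimulations also came apart at 6.20 with each position once, 7.49 with an overlap of 2 bases or more and 6.41 at a prey limit of 50% G, where genic after deletion with LPS/aIgD-dextran overlapped at -1.53. In deleted cells, stimulations overlapped near a start at 1 kb (-0.307) and for the AID list within 2 kb of starts (-0.632).

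With the replicate number as a block, whose smallest exact p is 0.25 and which is called where all 3 pairs agree in sign, 11 differences kept their value and became called: microhomology 4.92 and insertion -2.46 (deletion, aCD40/IL4), chromosome 12 -2.21, blunt 1.01 and AGCT -1.72 (deletion, LPS/aIgD-dextran), the share outside the window 0.838, chromosome 12 -1.93, microhomology 6.24, insertion -2.21 and the AID list -2.63 (stimulation, WT) and chromosome 12 -3.42 (stimulation, deleted). The pairing changed no other call.

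Leaving out 1 library cannot make separate groups overlap, so a share kept its call by construction. It gave these ranges for shares that gained a call in at least 1 fit: for the deletion with aCD40/IL4 microhomology 3.06 to 7.17, insertion -3.39 to -1.62, blunt -4.09 to -1.30, the AID list -3.54 to -1.48 and AGCT -1.89 to 0.129; with LPS/aIgD-dextran chromosome 12 -3.30 to -1.60, near a start -2.82 to -0.748, blunt 0.559 to 1.60 and AGCT -2.65 to -1.14. Between stimulations in WT they were the share outside the window 0.300 to 1.40, chromosome 12 -3.16 to -0.843, microhomology 4.38 to 8.49, insertion -3.54 to -1.35, blunt -5.66 to -3.01 and the AID list -3.83 to -1.76, and in deleted cells chromosome 12 -5.06 to -2.35. Called chromosomes ranged from 0 to 1 for the deletion with aCD40/IL4 (1 without WT replicate 3) and between stimulations in WT and in deleted cells (1 without aCD40/IL4 replicate 1 or LPS/aIgD-dextran replicate 2). Called bins ranged from 0 to 1 for the deletion with aCD40/IL4 (1 without WT replicate 2) and LPS/aIgD-dextran (1 without WT replicate 3), and from 1 to 3 between stimulations in deleted cells.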
